A study of Mus musculus with 8 samples.

Results

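Lgi3, Chad, Kcnj13 and Sec14l3 are 4 genes of the 24625 measured in lung neutrophil samples from mice given Streptococcus pneumoniae (SP) or phosphate-buffered saline (PBS), and they were picked because they were far lower in the SP samples. Each gene was found through its RefSeq identifier (NM_145219 for Lgi3, NM_007689 for Chad, NM_001110227 for Kcnj13 and NM_001029937 for Sec14l3), and each has 1 row in the expression table. A symbol could be given to 19915 rows, or 80.9%, which hold 19836 distinct genes. Because the difference between SP and PBS chose the 4 genes, their values are given below as a description, without a test.

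The wild-type mice were labelled 6 to 12 weeks old and were given 2.3 µl of either an SP suspension or PBS for each g of weight, by way of the trachea and into the left lung. After 24 h the lungs were digested, and neutrophils were taken with magnetic beads against Ly6G, a neutrophil surface protein. There were 4 samples in each group, each hybridised to 1 Affymetrix Mouse Gene 1.1 ST array, and no other allele or agent separates the groups. The purity of the cells was assessed by the study in the pneumonia samples only.

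Lgi3 encodes a secreted protein of the LGI family, which is built from leucine-rich repeats and is best known from the nervous system, where LGI proteins bind receptors of the ADAM family. Chad encodes chondroadherin, a leucine-rich repeat protein of the cartilage matrix. Kcnj13 encodes Kir7.1, an inwardly rectifying potassium channel of ion-transporting epithelia. Sec14l3 encodes a lipid-binding protein of the Sec14-like family that is known from airway epithelium. The lining of the lung holds alveolar type 2 cells, which make surfactant, ciliated cells, which move mucus along the airways, and club cells, which secrete proteins such as Scgb1a1.

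Promoter sequence from RefSeq (mouse assembly GRCm38.p6) was matched by symbol for 3 of the 4 genes, Chad, Kcnj13 and Sec14l3, and is shown because these genes differed so much between the same samples. Each stretch runs from 250 bases before to 50 bases after the annotated start, 5′ to 3′ on the strand of the gene. The stretches are chr11:94564797-94565096 on the plus strand for Chad, chr1:87394680-87394979 on the minus strand for Kcnj13 and chr11:4064603-4064902 on the plus strand for Sec14l3. Capitals mark the letters of any motif that was found.
Chad: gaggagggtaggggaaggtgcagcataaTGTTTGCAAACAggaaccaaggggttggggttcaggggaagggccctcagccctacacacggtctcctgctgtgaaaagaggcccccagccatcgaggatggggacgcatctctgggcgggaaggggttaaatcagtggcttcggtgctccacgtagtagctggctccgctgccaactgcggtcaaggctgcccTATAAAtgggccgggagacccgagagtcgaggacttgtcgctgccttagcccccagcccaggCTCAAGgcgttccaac
Kcnj13: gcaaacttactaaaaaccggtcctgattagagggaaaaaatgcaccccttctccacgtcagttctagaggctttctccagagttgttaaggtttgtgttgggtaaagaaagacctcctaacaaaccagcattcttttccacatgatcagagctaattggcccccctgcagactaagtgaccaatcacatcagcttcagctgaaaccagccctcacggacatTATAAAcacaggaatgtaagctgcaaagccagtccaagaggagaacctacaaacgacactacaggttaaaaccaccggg
Sec14l3: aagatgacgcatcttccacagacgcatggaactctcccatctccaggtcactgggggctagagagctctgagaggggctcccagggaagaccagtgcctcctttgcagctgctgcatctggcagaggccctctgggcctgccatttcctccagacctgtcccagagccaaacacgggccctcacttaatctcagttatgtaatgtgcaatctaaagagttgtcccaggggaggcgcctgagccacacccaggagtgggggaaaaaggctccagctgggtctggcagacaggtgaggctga
The motifs searched, on both strands, were a TATA box (TATAAA), an NKX2-1 core (CTCAAG), the A form (TGTTTAC) and the G form (TGTTTGC) of a FOXA motif, and the G form (GTTGCC) and the A form (GTTACC) of a short RFX motif. NKX2-1 and FOXA proteins act in lung epithelium, and RFX proteins in ciliated cells. TATAAA began at position -28 of Chad and -29 of Kcnj13, and it occurs in 13.6% of the 32851 mouse promoter windows of this length. Chad also held CTCAAG at position 35 after the start, as do 15.9% of all windows. Its TGTTTGC matches began at -222 on the plus strand and at -217 on the minus strand, and they overlap each other, so the motif, present in 5.07% of windows, was counted from 1 palindrome-like stretch. The A form of the FOXA motif and the G and A forms of the RFX motif, found in 3.65%, 12.5% and 7.21% of windows, were in none of the 3 promoters, and Sec14l3 held none of the letters searched. The GC content was 61.0% for Chad, 58.3% for Sec14l3 and 46.0% for Kcnj13, against a median of 52.7% over all windows.

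All values below are log2 expression values after robust multi-array averaging (RMA), the authors' normalization, so a difference of 1 is 2-fold. Over the table, 2773 of 24625 rows, or 11.3%, were lower in SP and 1568, or 6.37%, were higher, by limma's moderated test with a Benjamini-Hochberg adjusted p of at most 0.05 and a change of at least 2-fold. Lower rows were thus 63.9% of the calls, but 44.4% (1896 lower, 2375 higher) when every array was centred on its own median and 53.9% (2198 lower, 1878 higher) after quantile normalization. The array medians were 6.06 to 6.20 in PBS and 5.78 to 5.91 in SP, a mean shift of -0.28, while the median difference over rows was 0.10. The 3 Y-linked genes Ddx3y, Kdm5d and Uty, low on all 8 arrays, lay between 4.33 and 4.90 and serve here as a guide to the low end of the scale. Genes of neutrophils were bright in both groups, with a mean over the 10 listed markers of 12.51 (SD 0.14, n = 4) for PBS and 12.28 (SD 0.45, n = 4) for SP.

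Lgi3 had the largest SP minus PBS difference among the named genes that were called lower with separate groups. Its log2 values were 10.49, 11.02, 10.37 and 10.37 in PBS replicates 1 to 4 and 5.84, 5.65, 5.26 and 7.17 in SP replicates 1 to 4. The PBS values lay close together apart from replicate 2, and SP replicate 4 stood above the other SP values without reaching the PBS range. The means were 10.56 ± 0.31 and 5.98 ± 0.83 (SD, n = 4 each), a difference of -4.58, or 24.0-fold. Its lowest SP value, 5.26, was also near the low end of the scale, and without SP replicate 3 the difference was -4.34.

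Chad had log2 values of 9.75, 11.13, 9.48 and 10.32 in PBS and 5.33, 6.13, 4.60 and 6.82 in SP. It was the most variable of the 4 genes in both groups, highest in PBS replicate 2 and in SP replicate 4. The value of SP replicate 3, 4.60, was inside the range of the Y-linked genes, where array values can no longer be ordered. The means were 10.17 ± 0.73 and 5.72 ± 0.96 (SD, n = 4 each), a difference of -4.45. Since its lowest value marks no level, Chad was at least 20.8-fold lower, which is the difference (-4.38) with that value raised to the top of the Y-linked range, and the difference was -4.08 without SP replicate 3.

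Kcnj13 had log2 values of 9.97, 9.96, 9.84 and 10.17 in PBS and 5.68, 5.83, 4.94 and 6.01 in SP. It was the steadiest of the 4 genes in PBS, and its groups were the farthest apart, with the lowest PBS value 3.83 above the highest SP value. SP replicate 3 was again the lowest, just above the range of the Y-linked genes. The means were 9.99 ± 0.13 and 5.62 ± 0.47 (SD, n = 4 each), a difference of -4.37, or 20.7-fold. That lowest value, 4.94, is too near the low end of the scale to mark a sure level, and without SP replicate 3 the difference was -4.14.

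Sec14l3 had log2 values of 11.99, 12.10, 11.30 and 11.53 in PBS and 7.46, 8.01, 7.01 and 7.67 in SP. All its SP values were well above the range of the Y-linked genes, and unlike the other genes it was highest in SP replicate 2, not 4. The means were 11.73 ± 0.38 and 7.54 ± 0.42 (SD, n = 4 each), a difference of -4.19, or 18.3-fold.

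**Figure D1:**
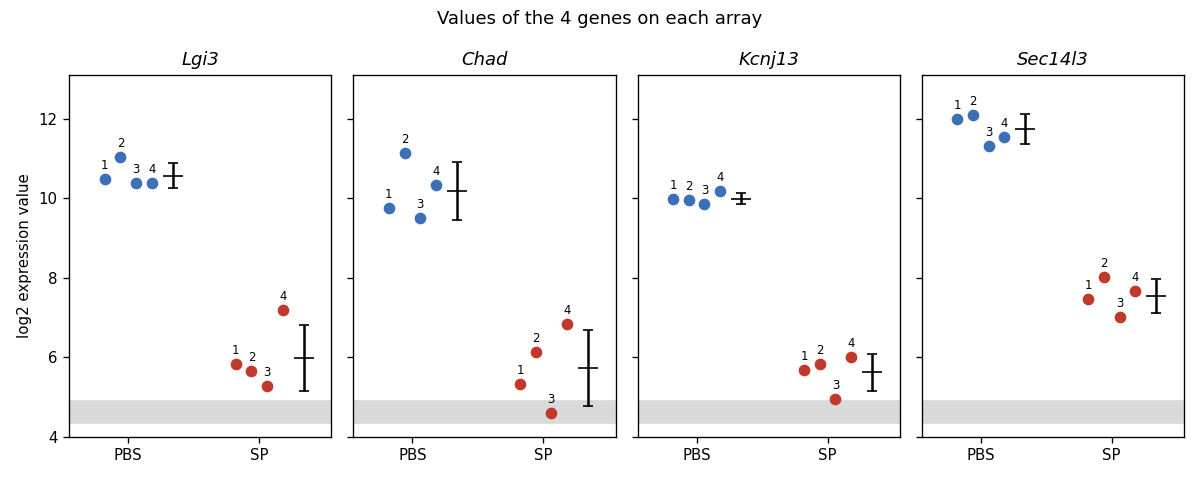
Log2 expression value (y axis) of Lgi3, Chad, Kcnj13 and Sec14l3 on each of the 8 arrays, with the replicate number above each point, the group mean ± SD (n = 4) beside the points, and the range of 3 Y-linked genes (4.33 to 4.90) in grey. The groups are apart for each gene, as in 49.0% of all rows. SP replicate 3 is the lowest SP array for all 4, and the Chad value of that array (4.60) lies in the grey band.

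The gaps between the lowest PBS and the highest SP value were 3.19 for Lgi3, 2.66 for Chad and 3.29 for Sec14l3. Groups that did not overlap, in either direction, were found in 49.0% of all rows. All 4 genes met the call rule, which their choice fixed, against 11.3% of all rows called lower. Among the 2507 named genes that were called lower with groups that did not overlap, ranked by the size of the difference, Lgi3 had rank 1, Chad rank 2, Kcnj13 rank 3 and Sec14l3 rank 5, with Chad at its measured difference. The differences of these 4 genes lie closer together than the SD of Lgi3 (0.83) or of Chad (0.96) in SP, so their order is not secure. The genes around Sec14l3 in this order were Upk3b (rank 4, -4.31), a uroplakin that marks mesothelial cells, Sprr1a (rank 6, -4.08), a cornified envelope protein of squamous epithelium, and Igfbp5 (rank 7, -3.99), a secreted binding protein of insulin-like growth factors. The differences of Sec14l3 and Sprr1a, next to each other in this order, lie closer together than the SD of either gene in either group. Leaving out any 1 array moved the difference to between -4.98 and -4.34 for Lgi3, -4.82 and -4.08 for Chad, -4.50 and -4.14 for Kcnj13, and -4.35 and -4.02 for Sec14l3.

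SP replicate 3 and PBS replicate 2 recurred in these values. SP replicate 3 was the lowest SP array for all 4 genes and for the alveolar type 2, ciliated and club cell list means, and it had the highest mean of the neutrophil list, 12.91 against 11.87 to 12.24 on the other SP arrays. All listed neutrophil genes but Csf3r were highest on that array, and Csf3r was lowest there, at 12.67 against 12.73 to 12.93. Camp (10.94 against 7.60 to 8.17) and Ngp (13.34 against 10.62 to 12.25) stood out most. PBS replicate 2 was the highest PBS array for Lgi3, Chad and Sec14l3 and for those 3 lists, and it had the lowest neutrophil list mean of the PBS arrays, 12.34 against 12.50 to 12.66. In whole samples such as these, fewer cells of a type and less RNA per cell cannot be told apart. The part of the mix of cells in the differences was not tested.

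The genes were next set beside markers of 3 epithelial cell types, from lists of 35 genes of which 32 were measured. In SP, 27 of these 32 were lower by the call rule, against 11.3% of all rows. None had a difference as large as that of Sec14l3, which the choice of the 4 genes made likely. The deepest was -3.90, in Cckar, the cholecystokinin A receptor.

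Of the 12 alveolar type 2 markers, 8 fell in SP (6 when the arrays were median-centred), with a median difference of -1.35, and all 12 were below PBS in the mean, though the sign of Sftpd turned under median centring and array weights. The largest fall was -2.33 in Etv5, a transcription factor that maintains these cells, and Cxcl15, a lung chemokine, fell by 1.69 (limma adjusted p = 0.0058). The 4 genes not called were Sftpc (-0.93, adjusted p = 0.0021) and Sftpa1 (-0.94, adjusted p = 0.038), surfactant proteins whose changes were under 2-fold, and Napsa (-0.46, adjusted p = 0.089), an aspartic protease, and Sftpd (-0.25, adjusted p = 0.52), a surfactant protein. The mean over the list was 11.88 in PBS (SD 0.27) and 10.57 in SP (SD 0.60), over 4 arrays each.

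All 12 measured ciliated cell markers fell, with a median of -2.86 and a range of -3.50 to -1.77. Hydin, an axonemal protein, fell most. Tppp3, a tubulin-binding protein, fell by 2.25, Cdhr3, a cadherin-related protein, by 2.94, and Rsph4a, a radial spoke protein, by 3.07 (limma adjusted p = 5.9e-05, 7.4e-05 and 9.4e-05). The list mean was 9.55 ± 0.36 in PBS and 6.83 ± 0.36 in SP.

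Of the 8 measured club cell markers, 7 fell, with a median of -2.50. Scgb1a1, the secretoglobin that defines club cells, was the exception, with a difference of -0.63 (adjusted p = 0.00023) that was under 2-fold. Cbr2, a carbonyl reductase, fell by 1.95 and Scgb3a1, a secretoglobin, by 1.72 (adjusted p = 0.00018 and 0.0033). The list mean was 12.47 ± 0.35 in PBS and 10.13 ± 0.59 in SP. Within each list the brighter and dimmer genes in PBS had like medians, -1.35 and -1.28 for alveolar type 2, -3.06 and -2.66 for ciliated and -2.29 and -2.53 for club cells. The brightest single genes varied. Scgb1a1 and Sftpc, at 13.63 and 13.33 in PBS, fell by 0.63 and 0.93, while Cxcl15 and Cbr2, at 13.38 and 13.22, fell by 1.69 and 1.95. The highest value on any array was 14.45, and compression of bright values was not tested.

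Relative to these lists, each of the 4 genes was lower still in SP. The difference between groups was larger than that of the alveolar type 2 list mean by 9.71-fold for Lgi3, 8.86-fold for Chad, 8.38-fold for Kcnj13 and 7.41-fold for Sec14l3. Against the ciliated list mean it was larger by 3.64-fold, 3.33-fold, 3.14-fold and 2.78-fold in the same order, and against the club list mean by 4.73-fold, 4.32-fold, 4.08-fold and 3.60-fold. The 4 genes were chosen for their differences, so this excess followed from the choice and is given as a description only.

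**Figure D2:**
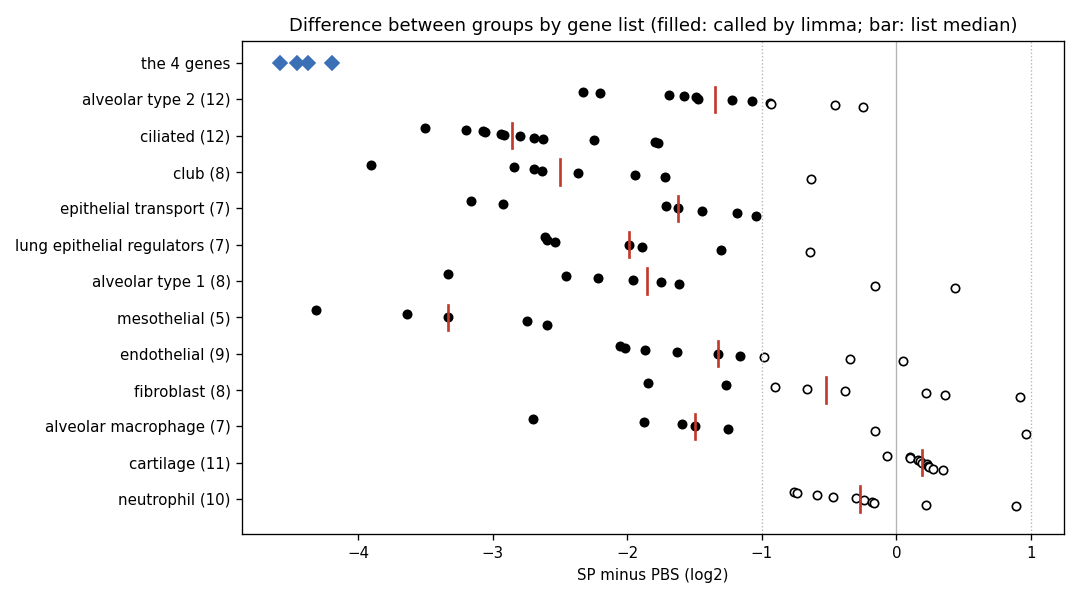
SP minus PBS (x axis, log2) for each measured gene of 12 marker and function lists (rows, with the number of genes), filled where called by limma and open where not, with the list median as a red bar and the 4 selected genes as blue diamonds. The selected genes lie at -4.58 to -4.19, left of each gene of the alveolar type 2, ciliated and club lists, while the neutrophil and cartilage lists have no call.

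Arrays of the same group differed from each other, and these differences were not used to choose the genes. For each gene the value on an array minus the group mean was set beside the same deviation of a list mean, and the SD over the 4 arrays of a group was computed for the gene alone and for the gene minus the list mean. Where a gene and a list move together by like amounts across arrays, the second SD is the smaller. A list that varies much more than the gene can widen the SD even so. Over the 4 genes, 3 lists and 2 groups, the SD was smaller after subtraction in 19 of 24 cases. This was not particular to the 3 lists: of 8 cases each, the SD was smaller in 7 with the endothelial list, 6 with the alveolar type 1 list, 4 with the fibroblast and with the alveolar macrophage list, 3 with the mesothelial list and 0 with the cartilage and with the neutrophil list. The order of the 4 arrays was the same for a gene and one of the 3 lists in 3 of 12 comparisons in PBS and 3 of 12 in SP, all of which are named below. The lists share arrays and move together in part, and with 4 arrays in a group these SDs are a description.

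Lgi3 followed the alveolar type 2 list most closely in PBS. Its deviations in PBS replicates 1 to 4 were -0.07, 0.46, -0.19 and -0.19, and those of the list mean were -0.08, 0.39, -0.17 and -0.15. Subtracting the list took the SD of Lgi3 from 0.31 to 0.046, against 0.17 for the ciliated and 0.18 for the club list. Much of this rests on PBS replicate 2: without it the SD of Lgi3 alone was 0.070 and that after subtraction 0.023. In SP the deviations of Lgi3 were -0.14, -0.33, -0.72 and 1.19, and the order of the 4 arrays, from high to low 4, 1, 2, 3, was that of the alveolar type 2 and club lists. The SD went from 0.83 to 0.41 with the alveolar type 2 list, 0.30 with the club list and 0.75 with the ciliated list, and the smallest of all 10 cell type lists was that with the fibroblast list, 0.23. Without SP replicate 4, the highest, Lgi3 alone had an SD of 0.29, and 0.22, 0.12 and 0.25 after subtracting the alveolar type 2, club and ciliated lists.

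Sec14l3 followed the ciliated list in SP. Its deviations in SP replicates 1 to 4 were -0.08, 0.47, -0.53 and 0.13, and those of the ciliated list mean were 0.08, 0.32, -0.51 and 0.11, with the same order of arrays. The SD went from 0.42 to 0.13 with the ciliated list, and rose to 0.53 with the alveolar type 2 and 0.49 with the club list, and no other cell type list gave a smaller SD than the ciliated one. Leaving out any 1 SP array kept the SD with the ciliated list between 0.090 and 0.16, against 0.28 to 0.51 for Sec14l3 alone. In PBS the lists did not separate in this way, with an SD of 0.38 for Sec14l3 alone and of 0.25, 0.24 and 0.32 after subtracting the alveolar type 2, ciliated and club lists. The alveolar type 1 and endothelial lists gave smaller values, 0.16 and 0.17, and the array order was that of the alveolar type 2 list. PBS replicate 1 decides these values: without it the SD was 0.41 for Sec14l3 alone and 0.13, 0.086 and 0.082 after subtracting the alveolar type 2, ciliated and club lists.

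Chad moved with all 3 lists, but more widely than any of them. Its deviations were -0.42, 0.96, -0.69 and 0.15 in PBS, in the array order of the ciliated and club lists, and -0.39, 0.41, -1.12 and 1.10 in SP. The SD in PBS went from 0.73 to 0.51, 0.39 and 0.37 with the alveolar type 2, ciliated and club lists, and in SP from 0.96 to 0.61, 0.73 and 0.47, with the fibroblast list smallest at 0.32. Without PBS replicate 2 the PBS value with the club list was 0.23 and that with the ciliated list 0.26, against 0.42 for Chad alone. Without SP replicate 4 the SP value with the ciliated list was 0.37, against 0.76 for Chad alone, and was then the smallest of the 3. Without SP replicate 3, the array with the value near the low end, Chad alone had an SD of 0.75. It was then 0.68, 0.74 and 0.45 after subtracting the alveolar type 2, ciliated and club lists. The narrowing with the ciliated list in SP thus depended on which array was left out.

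Kcnj13 did not share the pattern of the lists in PBS. Its deviations there were -0.01, -0.03, -0.14 and 0.18, and it did not have the high value on PBS replicate 2 that the other 3 genes and all 3 lists had. Its SD of 0.13 widened to 0.31, 0.34 and 0.34 with the alveolar type 2, ciliated and club lists. The list means had SDs of 0.27, 0.36 and 0.35 in PBS, larger than that of Kcnj13, and this can itself widen the SD. The widening alone thus cannot show an unlike pattern. Without PBS replicate 2 the SD after subtracting the club list was 0.033 and after the ciliated list 0.082, against 0.16 for Kcnj13 alone, so that 1 array decides these values. In SP the deviations of Kcnj13 were 0.06, 0.22, -0.67 and 0.39, and the SD went from 0.47 to 0.29, 0.20 and 0.27. The endothelial list was far closer, with an SD of 0.047 after subtraction, and the alveolar type 1 list gave 0.19. SP replicate 3 decides the values with the 3 epithelial lists: without it, Kcnj13 alone had an SD of 0.16, and 0.35, 0.21 and 0.33 after subtraction.

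**Figure D3:**
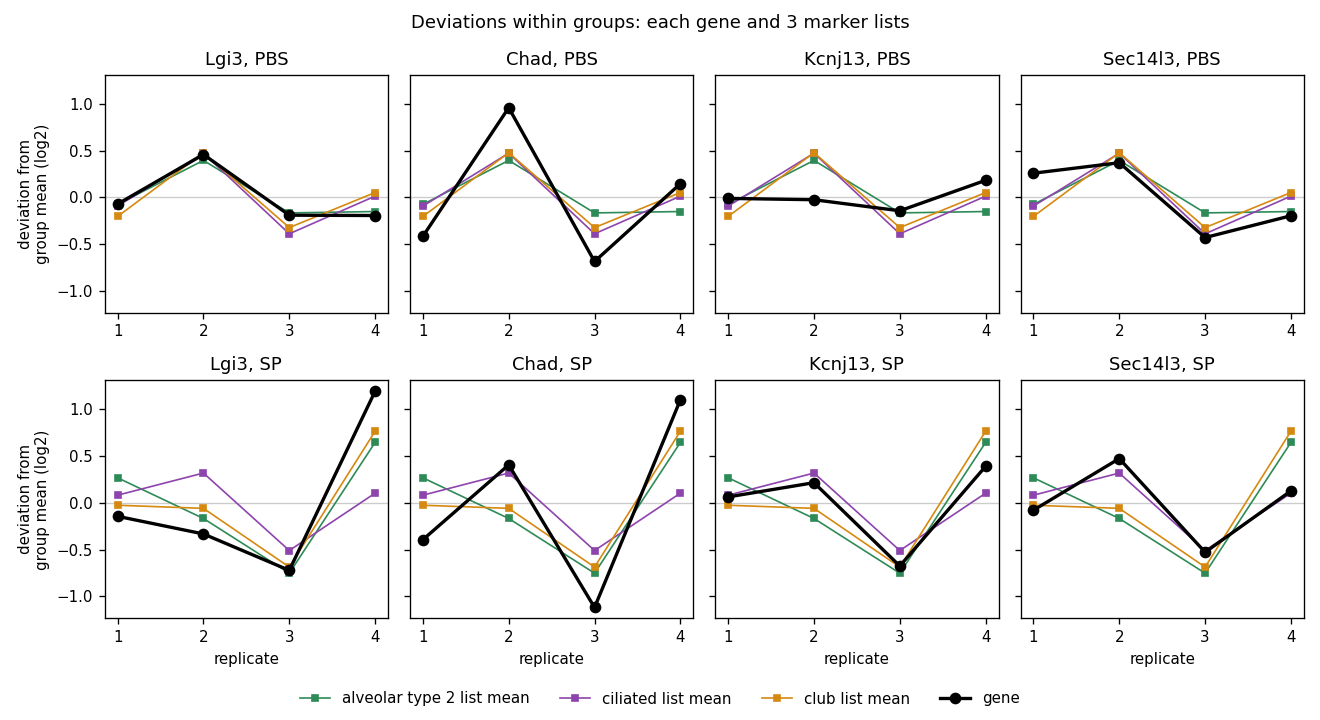
Deviation from the group mean (y axis, log2) on replicates 1 to 4 (x axis) of each gene (black) and of the mean of the alveolar type 2 (green), ciliated (purple) and club (orange) marker lists, for PBS (top) and SP (bottom). Lgi3 in PBS lies along the alveolar type 2 line, Sec14l3 in SP along the ciliated line, and Kcnj13 in PBS lacks the rise of replicate 2.

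**Figure D4:**
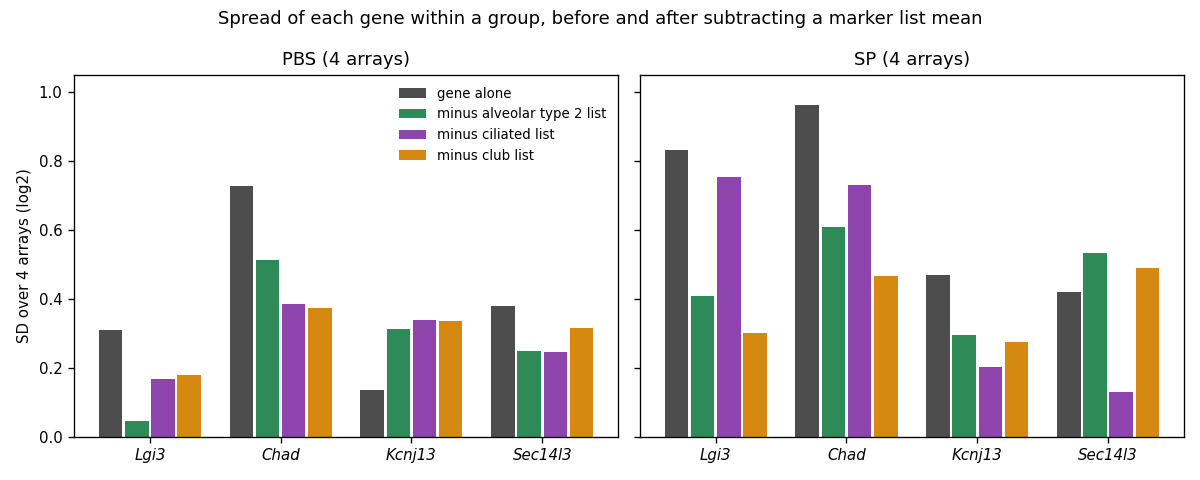
SD over the 4 arrays of a group (y axis, log2) for each gene alone (dark grey) and after subtracting the mean of the alveolar type 2, ciliated or club list. The shortest bars are Lgi3 minus the alveolar type 2 list in PBS (0.046) and Sec14l3 minus the ciliated list in SP (0.13), and for Kcnj13 in PBS each subtraction lengthens the bar.

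The same comparison was made with single genes. For each of the 4 genes, the other 19835 named genes were ranked by the root mean square distance between their deviations over the 8 arrays, which is small for genes that move together by the same amount, and each was given its percentile, low for a near gene. For Lgi3 the 12 alveolar type 2 markers had a median percentile of 2.48, with 11 of them within the nearest 10%, and the ciliated and club markers had 22.6 and 10.8. For Sec14l3 it was the ciliated markers that were near, with a median percentile of 2.92 and 11 of 12 within the nearest 10%, against 63.1 for alveolar type 2 and 66.5 for club markers. The nearest single marker of the 3 lists to Sec14l3 was nonetheless the club marker Cckar, at 0.26. Chad was near to all 3, at 4.37, 4.68 and 2.40 for alveolar type 2, ciliated and club markers. Kcnj13 was near to none, at 42.7, 20.2 and 53.6. The neutrophil markers were far from each of the 4 genes, at 73.4 to 91.2.

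Nearness was not limited to epithelial markers. The 9 endothelial markers had a median percentile of 3.69 with Chad, 9.95 with Lgi3 and 16.7 with Sec14l3. For Sec14l3, 4 of these 9 were within the nearest 10%. With Lgi3 the 8 alveolar type 1 markers had a median of 8.35 and the 8 fibroblast markers 10.9. The 3 nearest genes were Rbms3, Npr2 and Hspb1 for Lgi3, Plxnb1, Scn7a and Reg3g for Chad, Cfdp1, Esf1 and Tmem171 for Kcnj13, and Ppp1r13b, Cbx7 and Ptar1 for Sec14l3. Those of Lgi3 were themselves lower in SP, by 1.63 for Rbms3, an RNA-binding protein, 2.27 for Npr2, a natriuretic peptide receptor, and 2.47 for Hspb1, a small heat shock protein (limma adjusted p = 0.0047, 0.0011 and 0.0011). Of the genes nearest to Chad, Plxnb1, a semaphorin receptor, and Scn7a, a sodium channel, fell by 2.22 and 3.41 (adjusted p = 0.0033 and 0.00073), while Reg3g, an antimicrobial lectin, had a difference of -1.39 (adjusted p = 0.064). None of the 3 nearest to Kcnj13 was called, with differences of -0.56 to -0.25, of which that of Tmem171 turned in sign under median centring and quantile normalization. Of those nearest to Sec14l3, Cbx7, a Polycomb protein, fell by 1.81 (adjusted p = 0.00057), and the others had differences of -0.83 for Ppp1r13b and -0.47 for Ptar1. A like pattern across arrays thus went with differences between the groups of very unlike size.

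Markers of other cell types were also lower in SP. Of the 5 measured mesothelial markers all 5 fell, with a median of -3.33, larger than that of any other cell type list, and Upk3b and Msln, which encodes mesothelin, fell by 4.31 and 2.60. Their mean was lowest on SP replicate 3, at 5.59, but their order in PBS did not follow Lgi3, Chad or Sec14l3, since PBS replicate 2 was the lowest. Of 8 alveolar type 1 markers 6 fell (median -1.85), among them Emp2, a membrane protein, by 2.22, while Clic5, a chloride intracellular channel protein, had a difference of -0.16 that turned in sign under median centring, array weights and without PBS replicate 2 or SP replicate 3. Of 9 endothelial markers 6 fell (median -1.33), with Calcrl, a receptor subunit, falling by 1.63 and Cdh5, the cadherin of endothelial junctions, at -0.99, under 2-fold. Of 8 fibroblast markers 2 fell, the matrix proteoglycans Bgn by 1.27 and Dcn by 1.85 (1 to 3 when an array was left out, with 3 without SP replicate 4), and of 7 alveolar macrophage markers 5 fell (median -1.50), such as Car4, a carbonic anhydrase, by 1.25, while Chil3, a chitinase-like protein, was 0.97 higher without reaching 2-fold. The background is 11.3% of rows called lower.

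Among 10 neutrophil markers limma called 0 in either direction (3 had an adjusted p of at most 0.05 and 5 an unadjusted p under 0.05, and the methods' own test called 0), with a median of -0.27 and values of 0.22 for Lcn2, the granule protein lipocalin 2, and -0.47 for Retnlg, a resistin-like protein. Chad, a gene of cartilage, was also set beside 11 cartilage markers. limma and the methods' own test called 0 of them (8 had an unadjusted p under 0.05), their median difference was 0.19, and the list mean was 4.45 in PBS and 4.63 in SP, within the range of the Y-linked genes. The brightest were Sox9, a chondrocyte transcription factor, at 5.47 in PBS and 5.40 in SP, and Col9a2, a collagen chain, at 4.80 and 5.07, so the cartilage markers were near the low end of the scale in the PBS samples in which Chad was at 9.48 to 11.13.

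Genes related to the 4 were mostly not called. Over the 4 families, 9 of 43 measured relatives were lower in SP and 1 was higher, against 11.3% and 6.37% of all rows, and the median difference was 0.07. Most of the uncalled relatives had a PBS mean within or below the range of the Y-linked genes, so a fall in them could not be seen.

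Lgi1, Lgi2 and Lgi4, the other LGI genes, were not called, with differences of 0.05, 0.48 and 0.31. Their PBS means, 4.78, 5.65 and 4.52, were already near the low end of the scale. Adam22, a receptor of LGI proteins, fell by 1.68, or 3.20-fold (limma adjusted p = 9.4e-05). Its values were 7.09, 7.65, 6.91 and 7.47 in PBS and 5.64, 5.50, 5.59 and 5.66 in SP. The groups were apart, as in 49.0% of all rows. The 15 relatives of Chad among the leucine-rich repeat proteins of matrix held 5 that fell, namely Ogn (-3.80), Podn (-3.65), Dcn (-1.85), Fmod (-1.41) and Bgn (-1.27). Ogn, which encodes the matrix proteoglycan osteoglycin, was at 10.85, 10.63, 10.29 and 10.04 in PBS and at 6.50, 6.92, 5.51 and 7.67 in SP. Like Chad, it was lowest in SP replicate 3 and highest in SP replicate 4, but PBS replicate 2 was not its highest PBS array.

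Of 14 other inward rectifier channel genes, 1 fell, Kcnj15, which encodes Kir4.2, by 1.74 (adjusted p = 0.0049). Its values were 9.87, 10.37, 9.56 and 9.76 in PBS and 8.39, 7.79, 7.35 and 9.08 in SP, with the highest PBS value on replicate 2, unlike Kcnj13. Of 9 Sec14-like genes, Sec14l4 and Sec14l2 fell by 2.91 and 1.83 (adjusted p = 0.00030 and 0.00014). Sec14l4 was at 9.71, 9.83, 9.14 and 9.50 in PBS and at 6.56, 6.52, 5.84 and 7.63 in SP, lowest on SP replicate 3 as Sec14l3 was but highest on replicate 4. Clvs1, which encodes clavesin 1, was the only relative called higher, by 1.36 (adjusted p = 0.030), from 4.73 to 4.81 in PBS to 6.83, 7.07, 5.34 and 5.21 in SP, so that 2 SP arrays were far above the other 2. The calls of Clvs1 and Bgn did not hold in the methods' own test (adjusted p = 0.067 and 0.069) or without any 1 of the PBS arrays or of SP replicates 1 and 2, that of Clvs1 also not after quantile normalization, and that of Bgn also not without SP replicate 3 (-0.88) or with median centring (-0.99), where the change was under 2-fold.

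**Figure D5:**
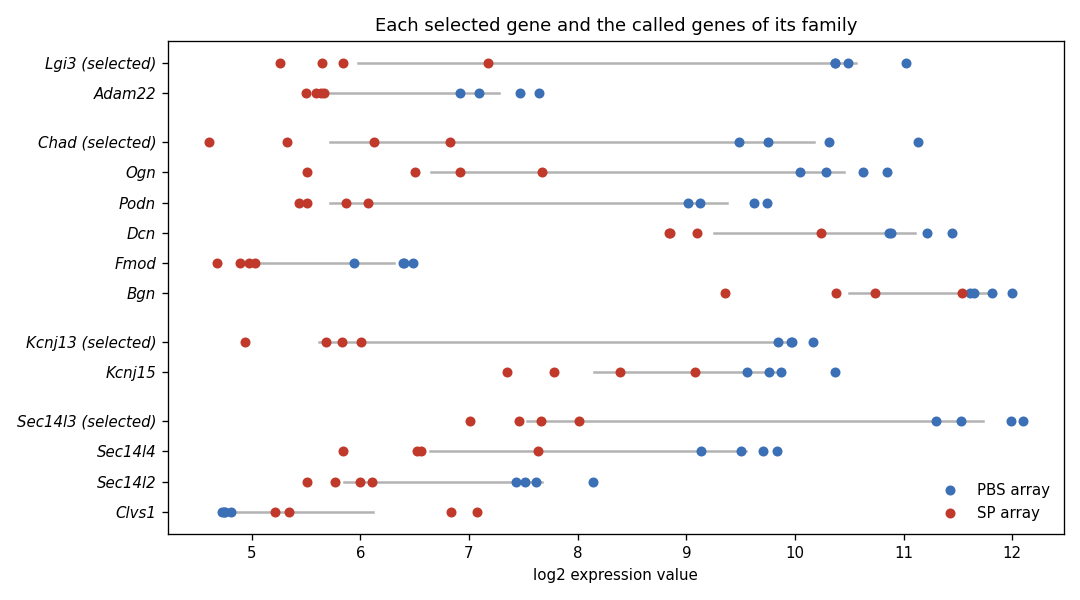
Log2 expression value (x axis) on each PBS (blue) and SP (red) array of the 4 selected genes and of the relatives that were called, grouped by family, with a grey line between the group means. In 9 of the 10 relatives SP lies below PBS, the largest difference being that of Ogn (-3.80), and in Clvs1 it lies above.

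The neighbours of the 4 genes in the order of protein-coding genes in GRCm38.p6 did not share one direction. Lgi3 lies between Sftpc, the surfactant protein C gene of alveolar type 2 cells (-0.93), and Reep4, a protein of the endoplasmic reticulum (-0.74, adjusted p = 0.0085), both under 2-fold. Chad lies within the span of Acsf2, an acyl-CoA synthetase gene that fell by 2.13 (adjusted p = 1.6e-05), next to Rsad1 (-0.65) and Lrrc59 (0.19). The authors' counting of probes to overlapping genes was not described in the sources used here. Kcnj13 lies within Gigyf2, a translational repressor gene that was not called (0.37, adjusted p = 0.099), next to Efhd1 (0.10) and Snorc (0.30). Sec14l3 lies between Sec14l4, described above, and Mtfp1, a mitochondrial protein (-0.64, adjusted p = 0.0013, under 2-fold).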

How the data were processed

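Lung neutrophil RNA of 4 PBS and 4 SP mouse samples was measured on Affymetrix Mouse Gene 1.1 ST arrays. The authors deposited log2 values, made by RMA with correction for GC content and sequence and with quantile normalization, and with probe sets joined into genes by a custom mapping, per the labels and the study's methods. The genome build is not given in the sources used here. Symbols came from RefSeq identifiers (GRCm38.p6). SP was compared with PBS over all 24625 rows with limma 3.58.1 (R 4.3.3), without a block, and p-values were adjusted by Benjamini-Hochberg. A call needs an adjusted p of at most 0.05 and a 2-fold change. The script was tested on simulated data. Precision is limited by the number of arrays, and the study describes each sample as taken from a mouse.

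The 4 genes and all lists were chosen with earlier results of these data known. Named genes are the 4 genes, ranks 1 to 7 of the falls, the 3 brightest and all uncalled genes of the alveolar type 2, ciliated and club lists, the 2 brightest of other cell type lists, called relatives or else the brightest, the 3 nearest genes of each of the 4, their neighbours and 3 Y-linked genes. Lgi1, Lgi2, Lgi4, Etv5, Hydin, Cckar, Camp, Ngp and Csf3r were added after their values were seen. Foxj1, Ccdc40, Scgb3a2, Rtkn2, Wt1, Muc16, Adam23 and Nkx2-1 were not analysed here. Alternatives were the methods' one-way ANOVA, a robust prior with trend, a replicate block, array weights, median centring, quantile normalization, no dim rows, each array left out, list medians, and other measures of likeness.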

Additional observations from a re-analysis of the deposited data

Results flagged for a closer look

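The 4 genes and the 10 cell type list means were examined in each group of 4 samples for a sample far from the others by Dixon's test, over 28 groups in all, and chance marks about 1 in 20. The alveolar type 2 list mean of PBS replicate 2 was 12.27, above 11.80, 11.71 and 11.72 in the other PBS replicates. This is the array on which Lgi3, Chad and Sec14l3 were also highest in PBS. The mesothelial list mean of SP replicate 3 was 5.59, below 7.14, 7.24 and 7.44, and the 4 genes were lowest on that array too. The alveolar macrophage list mean of SP replicate 4 was 8.43, above 7.60, 7.70 and 7.70, on the array where Lgi3, Chad and Kcnj13 were highest in SP. No value of the 4 genes themselves stood out by this test.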

How the results depend on the processing

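The differences of the 4 genes kept their sign under each alternative run. Median centring gave 2375 rows higher. Fibroblast markers lower in SP numbered 1 with the one-way ANOVA and with median centring, and 1 to 3 over the arrays left out. Neutrophil markers lower in SP numbered 2 with array weights, and 0 to 2 over the arrays left out, with 2 without SP replicate 3. The SD of Kcnj13 in PBS after subtraction ranged, over the arrays left out, from 0.17 to 0.38 for the alveolar type 2 list, 0.082 to 0.41 for the ciliated list and 0.033 to 0.40 for the club list, each lowest without PBS replicate 2, and it was 0.50 with the median of the ciliated list. The median percentile of likeness moved to 14.5 for ciliated markers with Chad on SP samples only. Ranked by correlation it was 13.0 and 13.4 for alveolar type 2 and club markers with Kcnj13, and 24.6 and 25.1 with Sec14l3, so the distance of Kcnj13 and Sec14l3 from these lists depends on the measure. Alveolar type 2 markers with Sec14l3 were at 83.1 after quantile normalization and 85.3 on SP samples only. The sign turned for Sftpd (0.074 with array weights, 0.034 with median centring), Clic5 (0.41 and 0.12, and -0.37 to 0.21 over the arrays left out, above 0 without PBS replicate 2 or SP replicate 3), Sox9 (0.21 with median centring, and -0.22 to 0.091 over the arrays left out, above 0 without PBS replicate 2), Tmem171 (0.035 with median centring, 0.15 with quantile normalization) and, with quantile normalization, Ddx3y (-0.021) and Efhd1 (-0.024). The SDs of a gene alone without an array and the Chad difference with its lowest value raised were added after seeing the data. The causes were not tested. The remaining results were those of other single genes and the counts of each family, the transport list and the transcription factor list. Of these, 907 values kept direction and side of the threshold, or a like count. Among single genes, 62 values lost and 27 gained an adjusted p of at most 0.05. Replicate numbers were not treated as pairs. Correlations of same-numbered deviations ran from -0.27 to 0.35 over 4 pairs, and 1 sample of each group was closest to its own number. With so few pairs these values cannot settle whether the numbers pair the samples. With the replicate block 2766 rows were lower and 1558 higher.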

Other observations

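Genes of ion transport across epithelia, the setting in which Kcnj13 is best known, were all lower in SP: 7 of 7 fell, with a median of -1.62, against 11.3% of all rows called lower. The count was 5 with median centring, 6 with quantile normalization and with array weights, and 6 to 7 over the arrays left out. Scnn1a, the alpha subunit of the epithelial sodium channel, fell by 1.62 (limma adjusted p = 0.0014), Scnn1b and Scnn1g, its beta and gamma subunits, fell by 3.16 and 2.93, and Slc26a9, an anion transporter, fell by 1.19 (adjusted p = 0.0088). Of 7 measured transcription factors of lung epithelium, 6 fell, with a median of -1.99, among them Klf5 by 1.89 and Elf3 by 1.99 (adjusted p = 0.00017 and 0.00032), while Cebpa had a difference of -0.64. The mean of the transport list had the array order of Lgi3 in SP, from high to low 4, 1, 2, 3. Scnn1b, Scnn1g and Cebpa were named after their values were seen.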
